A study of Mus musculus with 8 samples.

Results

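The SLC25 mitochondrial carriers are the proteins that move nucleotides, phosphate, amino acids, carboxylates and cofactors across the inner membrane of mitochondria. Their genes were taken here as all protein-coding genes of the deposited table whose mouse symbol starts with Slc25a. The rule uses no measured value, but the family was picked for description with earlier results of these data known. This gave 47 genes of 54752 in the table, of which 21921 were protein-coding, and 1 further Slc25a symbol that was not protein-coding was left out. Of the 47 carriers, 41 passed the filter on low counts and were tested, and 6 did not. SLC25 family proteins under other symbols (Ucp1, Ucp2, Ucp3, Mtch1 and Mtch2) are not among them. Sums and shares of the family below leave these out.

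Messenger RNA was sequenced from cardiomyocytes isolated with a Langendorff perfusion system from mouse hearts, in a series on the arginine methyltransferase Carm1 and the maturation of the heart after birth. Every mouse carried floxed Carm1 alleles (Carm1fl/fl), which Cre recombinase can delete. The 2 KO groups had received adeno-associated virus of serotype 9 with Cre (AAV-CRE), and the 2 control groups the same virus with GFP (AAV-GFP). Each treatment was sampled at 1w and at 3w with 2 libraries a group, 8 in all: control 1w, control 3w, KO 1w and KO 3w. The labelled injection days were postnatal day 1 and 2 for the 1w libraries and postnatal day 3 and 4 for the 3w libraries of each treatment, and what 1w and 3w are counted from is not stated. The hearts were mosaic, with infected and uninfected cardiomyocytes next to each other, and the labels mention no sort for infected cells. The promoter that drove Cre is not given in the sources used here. A control with Cre but without floxed Carm1 is not among the groups, so Cre itself and the loss of Carm1 cannot be told apart. Whether the libraries within a group are from different mice is not labelled, so p-values speak only to the variation among these 8 libraries, part or all of which may be technical.

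All members of the family share a fold of repeated membrane-spanning modules and work mostly as exchangers, trading a solute in the matrix for one outside. In heart muscle the adenine nucleotide carriers export the ATP made in the matrix, the phosphate carrier brings in the phosphate needed to make it, and the acylcarnitine carrier brings in fatty acids as fuel. The aspartate-glutamate and oxoglutarate-malate carriers together carry the reducing equivalents of cytosolic NADH into mitochondria.

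Promoter sequences are shown for 3 carriers: Slc25a4 and Slc25a5, the main adenine nucleotide carriers, whose transcripts moved in opposite directions with age, and Slc25a20, the acylcarnitine carrier, which held the only motif match found. Each runs 5′ to 3′ from 250 bases before to 50 bases after the transcription start, from RefSeq on GRCm38.p6, and the capitals mark the match.
Slc25a4, chr8:46211013-46211312, minus strand: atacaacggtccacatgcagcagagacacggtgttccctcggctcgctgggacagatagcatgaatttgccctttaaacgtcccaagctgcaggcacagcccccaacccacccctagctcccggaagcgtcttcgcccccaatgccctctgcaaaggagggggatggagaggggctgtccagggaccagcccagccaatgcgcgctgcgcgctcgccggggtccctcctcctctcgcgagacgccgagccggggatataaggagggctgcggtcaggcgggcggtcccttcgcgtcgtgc
Slc25a5, chrX:36795347-36795646, plus strand: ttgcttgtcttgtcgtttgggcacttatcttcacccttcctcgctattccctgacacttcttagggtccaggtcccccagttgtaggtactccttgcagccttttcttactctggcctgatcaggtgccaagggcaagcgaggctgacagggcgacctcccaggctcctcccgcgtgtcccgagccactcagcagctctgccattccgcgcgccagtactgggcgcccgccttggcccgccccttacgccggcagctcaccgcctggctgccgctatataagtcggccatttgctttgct
Slc25a20, chr9:108661886-108662185, plus strand: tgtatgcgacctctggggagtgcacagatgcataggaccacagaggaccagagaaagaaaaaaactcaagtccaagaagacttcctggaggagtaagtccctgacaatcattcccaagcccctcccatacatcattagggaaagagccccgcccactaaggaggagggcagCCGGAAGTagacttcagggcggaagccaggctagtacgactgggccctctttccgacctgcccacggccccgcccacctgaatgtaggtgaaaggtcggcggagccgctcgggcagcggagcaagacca

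In the RefSeq promoters, 36 of the carriers had an entry, with 46 promoters. They were searched on both strands for 3 motifs of factors known from mitochondrial gene control. TCAAGGTCA, the element bound by estrogen-related receptors, was in 0 of the 46 promoters and in 0.423% of all 32851 promoters in the table. GCGCATGCG, the core of the NRF1 site, was in 0 of the carriers' promoters and in 1.75% of all. CCGGAAGT, the site of GABPA, was in 1 carrier promoter (2.17%) and in 3.89% of all. That match was the one printed in Slc25a20, with its first base at position -79 from the start. These are matches of letters in a window of 300 bases and no measurement of binding.

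Library totals ran from 20818285 to 53671626 counts, and 40.7 to 47.8% of them came from mitochondrially encoded genes. Carm1 read 39.1 to 40.5 CPM (counts scaled to equal library size with TMM factors, the trimmed mean of M-values) in the 4 control libraries, 22.2 and 22.4 CPM in KO 1w, and 17.3 and 17.8 CPM in KO 3w. It fell by 0.83 at 1w and by 1.17 at 3w on the log2 scale, so transcript remained in the KO libraries. Counts of Y-linked genes were 0 to 3 in control 1w and KO 3w and 4282 to 6765 in control 3w and KO 1w. Every comparison within an age or within a treatment, and the difference between the KO effects at 3w and 1w, therefore cannot be told apart from this split, whereas the effects of KO over both ages and of age over both treatments are balanced over it. Cardiomyocyte markers other than Pln, which was listed at 0 in every library, summed to 34610 to 37390 CPM at 1w. They summed to 70020 to 74070 CPM in control 3w and to 56940 to 57670 CPM in KO 3w. In 7 cardiomyocyte markers tested, 6 were lower in KO at each age and 1 was higher at 1w, while 6 of 6 fibroblast markers were higher in KO at each age. The fibroblast markers summed to 707.5 to 715.1 CPM in control 1w and 1359 to 1372 CPM in KO 1w, then to 167.8 to 169.1 CPM in control 3w and 375.4 to 386.2 CPM in KO 3w. Smooth muscle and pericyte markers summed to 1379 to 1426, 2018 to 2039, 805.9 to 838.7 and 1644 to 1647 CPM in the same order, and macrophage markers to 25.0 to 25.4, 81.7 to 86.6, 41.6 to 42.5 and 67.4 to 67.9 CPM. Of 6 smooth muscle and pericyte markers 4 were higher and 1 lower in KO at 1w, and 6 were higher at 3w. Of the 5 atrial markers all 5 were higher in KO at 1w, whereas at 3w 1, Nppa, was higher and 4 were lower. Nppa, which stressed ventricular muscle also expresses, was at 34.4 CPM in both control 1w libraries, 103.6 and 101.3 in control 3w, 188.8 and 189.4 in KO 1w, and 590.1 and 576.8 in KO 3w. Bmp10 was at 0.13 and 0.11 CPM in control 1w, 19.7 and 20.85 in control 3w, 179.5 and 179.9 in KO 1w, and 0.035 and 0.11 in KO 3w. Myl7, Myl4 and Sln were likewise highest in KO 1w, with control 3w next. Endothelial markers summed to 680.0 to 792.7 CPM at 1w and 262.8 to 321.8 CPM at 3w, with the sum higher in KO at each age. Of 6 tested, 6 were higher in KO at 1w, and 4 were higher and 1 lower at 3w. Epicardial markers summed to 23.0 to 24.1 CPM in control 1w, 38.3 to 39.3 in KO 1w, 20.0 to 20.6 in control 3w and 11.6 to 12.3 in KO 3w. Of 5 tested, 4 were higher in KO at 1w and 4 lower at 3w. Erythroid markers other than Alas2, which was listed at 0 in all libraries, summed to 54.8 to 76.9, 25.9 to 27.3, 120.6 to 131.9 and 155.7 to 160.1 CPM in the same order. Of 4 tested, 3 were lower in KO at 1w and 2 higher at 3w. The part of these other cells in the carrier values was not tested, and in bulk RNA fewer cells of a type and less RNA per cell cannot be told apart.

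One carrier held most of the family's transcript. Slc25a4, the heart and muscle adenine nucleotide carrier (ANT1), had a mean level of 2128 CPM per kb of its principal transcript over the 8 libraries. Slc25a3, the phosphate carrier, followed at 453.9 CPM per kb, Slc25a5, the more widely expressed adenine nucleotide carrier (ANT2), at 193.3, and Slc25a11, the oxoglutarate-malate carrier, at 165.3. Per kb of merged exons of all transcripts the order after Slc25a4 (1741 CPM per kb) became Slc25a5 (145.7), Slc25a11 (133.4) and Slc25a3 (131.8), because the merged exons of Slc25a3 span 5550 bases and its principal transcript 1612. The next carriers by that measure were Slc25a34, Slc25a39, Slc25a12, Slc25a20, Slc25a13 and Slc25a46.

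Slc25a4 alone made up 58.5 and 60.1% of the family's summed level per kb of principal transcript in control 1w, 67.5 and 69.6% in control 3w, 57.9 and 57.8% in KO 1w, and 63.1 and 62.9% in KO 3w. With merged exons the same shares ran from 66.8 to 76.7%. The share was higher at 3w than at 1w in both treatments and lower in KO 3w than in control 3w, with no overlap between those groups. Summed over the 47 carriers, the level was 4918 and 5082 CPM in control 1w, 9667 and 9810 in control 3w, 4648 and 4573 in KO 1w, and 6821 and 6739 in KO 3w. Without Slc25a4 the sums were 2057 and 2040, 3248 and 3106, 1956 and 1928, and 2587 and 2572 CPM in the same order. The sums with and without Slc25a4 kept the same order of groups: KO 1w lowest, then control 1w, KO 3w and control 3w. These sums rest on TMM factors, which differed by group. Of all unscaled counts the carriers took 0.563 and 0.587% in control 1w and 0.573 and 0.563% in KO 1w, which overlap. At 3w they took 0.755 and 0.744% in control and 0.625 and 0.617% in KO. Of counts not mitochondrially encoded they took 0.986 and 1.01% in control 1w and 0.965 and 0.955% in KO 1w.

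**Figure D1:**
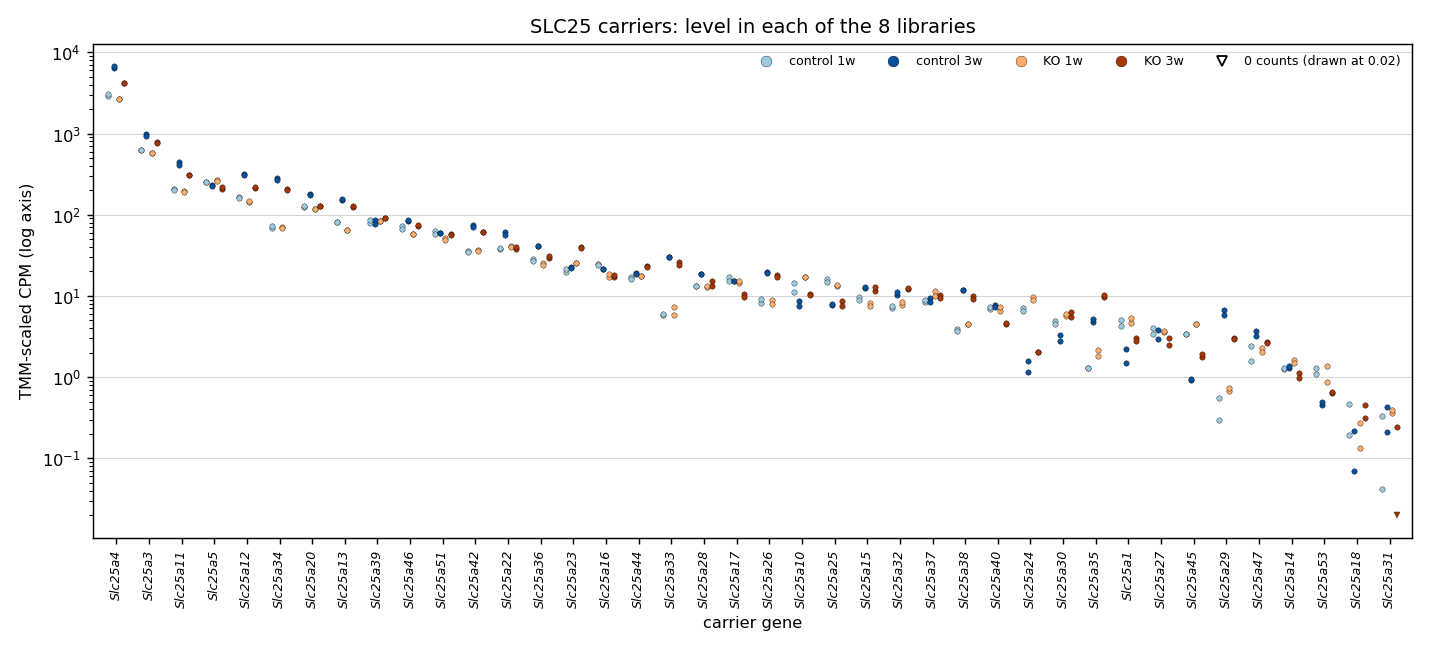
Level of 40 tested carriers in each of the 8 libraries, in TMM-scaled CPM on a log axis, with carriers sorted by mean CPM, colours for the groups and a triangle at 0.02 for 0 counts. The values are not divided by length, so the points compare libraries within a carrier, and Slc25a4 runs from 2645 CPM in a KO 1w library to 6703 CPM in a control 3w library.

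The 6 carriers below the filter were near 0 in every library. Slc25a2, an ornithine carrier, had 0 counts in all 8 libraries. Slc25a21, the oxodicarboxylate carrier, had 0 or 1 count, and Slc25a54 likewise 0 or 1. Slc25a48 had at most 2 counts, Slc25a41 at most 4 and Slc25a43 at most 9, the last in KO 1w. Of the tested carriers, Slc25a18, a glutamate carrier, and Slc25a31, the adenine nucleotide carrier of the testis, stayed below 0.5 CPM in every library.

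At 1w, 7 carriers were higher in KO, 11 were lower and 23 did not pass the test, with a median log2 change of -0.00095 over the 41 carriers against 0.022 over all genes tested. Called means an adjusted p under 0.05 by the quasi-likelihood test of edgeR, with p-values adjusted after Benjamini and Hochberg over 14665 genes. Among all genes 23% were called higher and 20% lower at this age, so the carriers' 7 and 11 of 41 lay near the background. Among the 29 carriers with a mean of at least 5 CPM, 3 were higher and 11 lower. This limit was added after seeing the data, and the share of all genes above it was not computed for any comparison.

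The aspartate-glutamate carrier Slc25a13 (citrin) measured 82.3 and 81.0 CPM in control 1w, 153.0 and 155.6 in control 3w, 65.4 and 65.0 in KO 1w, and 125.3 and 127.1 in KO 3w. Both KO groups lay below the control of their age without overlap, with log2 differences of -0.32 ± 0.04 (SE, n = 2 against 2, adjusted p = 2.6e-10) at 1w and -0.29 ± 0.04 at 3w. Slc25a46, an outer membrane member with a known part in mitochondrial shape, read 71.9 and 67.1 CPM in control 1w and 57.8 and 57.2 in KO 1w, and at 3w 84.8 and 86.0 CPM in control and 71.7 and 74.6 in KO. It was lower by -0.27 ± 0.04 at 1w and -0.22 ± 0.04 at 3w, again with no overlap. Slc25a16, a carrier linked to coenzyme A, had the largest called fall at 1w among carriers of at least 5 CPM, from 25.0 and 23.8 CPM in control to 16.9 and 18.8 in KO (-0.45 ± 0.07, adjusted p = 5.5e-08). At 3w it read 21.2 and 21.3 CPM in control and 17.0 and 18.1 in KO (-0.28 ± 0.07).

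Slc25a51, the NAD carrier, was lower in KO at 1w, with 63.2 and 58.5 CPM in control and 51.7 and 49.4 in KO (-0.26 ± 0.05, adjusted p = 2.4e-06). At 3w its 59.8 and 58.9 CPM in control and 57.8 and 56.9 in KO differed by -0.05 ± 0.05, which did not pass the test (adjusted p = 0.38). Slc25a12 (aralar), the aspartate-glutamate carrier of muscle, was at 163.1 and 159.2 CPM in control 1w and 144.7 and 146.0 in KO 1w (-0.15 ± 0.03). Slc25a4 and Slc25a3 were lower in KO 1w by -0.15 ± 0.03 and -0.13 ± 0.03, small differences beside those at 3w. The ornithine carrier Slc25a15 (-0.24), the ATP-Mg/phosphate carrier Slc25a25 (-0.20), the pyrimidine nucleotide carrier Slc25a36 (-0.16) and Slc25a20 (-0.09) completed the 11 carriers that fell. Slc25a11 (-0.08, adjusted p = 0.054) passed with a block for injection day (adjusted p = 0.041). All 4 of these calls were lost in KO 1w without single libraries and in DESeq2's Wald test. Adjusted p without KO 1w replicate 2 was 0.20 for Slc25a15, 0.11 for Slc25a25, 0.17 for Slc25a36 and 0.12 for Slc25a20. Without control 1w replicate 1 it was 0.19 for Slc25a15, 0.21 for Slc25a25 and 0.15 for Slc25a36, and without control 1w replicate 2 it was 0.12 for Slc25a20. Without KO 1w replicate 1 it was 0.051 for Slc25a15, 0.14 for Slc25a25 and 0.14 for Slc25a20.

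Of the 7 carriers higher in KO 1w, Slc25a24 and Slc25a23, calcium-sensitive ATP-Mg/phosphate carriers, and Slc25a10, the dicarboxylate carrier, kept the call without any library. Slc25a10 read 11.2 and 14.5 CPM in control 1w, 8.73 and 7.49 in control 3w, 17.3 and 17.1 in KO 1w, and 10.5 and 10.3 in KO 3w. The groups of an age did not overlap, and the differences were 0.39 ± 0.08 at 1w and 0.34 ± 0.10 at 3w, the latter with adjusted p = 0.11 without control 3w replicate 2 and 0.064 without KO 3w replicate 1. Slc25a24 rose by 0.47 ± 0.10 at 1w, from 7.05 and 6.59 CPM to 9.71 and 9.03. The calls of the other 4 at 1w rested on single libraries. Slc25a35 (0.58) had an adjusted p of 0.090 without control 1w replicate 2 and 0.13 without KO 1w replicate 2, and Slc25a37, mitoferrin 1 (0.30), had 0.29 without KO 1w replicate 1. Slc25a45 (0.41) had 0.063 to 0.10 without any 1 of the 4 libraries at 1w. Slc25a30 (0.32) had 0.25 without control 1w replicate 2, 0.056 without KO 1w replicate 1 and 0.16 without KO 1w replicate 2. DESeq2's Wald test called 3 carriers higher and 7 lower at 1w.

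At 3w more carriers were called. In KO, 19 of the 41 were lower and 10 higher, and 12 did not pass the test, with a median log2 change of -0.23 against 0.0061 over all genes. Among all genes 24.8% were lower and 24.4% higher, so 19 of 41 lower lay above the background and 10 of 41 higher near it. Among the 29 carriers of at least 5 CPM, 18 were lower and 5 higher, with no share of all genes above that limit to set beside them. In the same libraries the cardiomyocyte markers summed lower in KO, the fibroblast and smooth muscle markers higher, and 4 of 5 atrial markers were lower, at the values given above, and their part in these counts was not tested.

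The carriers that fell at 3w included the most abundant ones. Slc25a4 measured 6419 and 6703 CPM in control 3w and 4234 and 4167 in KO 3w, against 2861 and 3043 in control 1w and 2691 and 2645 in KO 1w. KO 3w lay between the 1w groups and control 3w, with no overlap among them, and differed from control 3w by -0.64 ± 0.03 (adjusted p = 3.4e-28). Slc25a11 was at 440.8 and 406.7 CPM in control 3w and 311.4 and 308.0 in KO 3w (-0.45 ± 0.03), against 190.6 to 208.7 CPM in the 4 libraries at 1w. Slc25a12 was at 319.9 and 309.1 CPM in control 3w and 215.4 and 218.6 in KO 3w (-0.54 ± 0.03). Slc25a3 was at 976.3 and 923.5 CPM in control 3w and 779.6 and 759.5 in KO 3w (-0.30 ± 0.03), against 572.9 to 635.1 CPM at 1w. In each of these the KO 3w libraries were below both control 3w libraries and above every library at 1w.

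Other carriers in KO 3w were at or close to their 1w level in TMM-scaled CPM. Slc25a22, a glutamate carrier, measured 38.0 and 39.1 CPM in control 1w, 61.3 and 56.7 in control 3w, 41.2 and 39.7 in KO 1w, and 38.1 and 40.2 in KO 3w. Control 3w stood alone, above the other 6 libraries at 38.0 to 41.2 CPM. This holds after TMM scaling, whose factors differed by group, and not for counts over unscaled library totals. Its difference between KO and control was -0.60 ± 0.05 (adjusted p = 3.4e-16) in the 3w libraries, and the 0.07 ± 0.05 in the 1w libraries did not pass the test (adjusted p = 0.29). Slc25a20 read 125.4 and 126.8 CPM in control 1w, 180.5 and 176.0 in control 3w, 118.0 and 118.4 in KO 1w, and 128.7 and 128.6 in KO 3w, a difference of -0.47 ± 0.04 at 3w. From 1w to 3w it rose by 0.50 ± 0.04 in control and by 0.12 ± 0.04 in KO. Slc25a28, mitoferrin 2, which carries iron, showed 18.6 and 18.4 CPM in control 3w against 13.3 and 15.5 in KO 3w (-0.36 ± 0.08), with 13.0 to 13.2 in all 4 libraries at 1w.

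Slc25a40, which carries glutathione, and Slc25a17, a peroxisomal carrier of cofactors, fell in KO 3w to below their 1w level. Slc25a40 was at 6.93 and 7.41 CPM in control 1w, 7.82 and 7.31 in control 3w, 6.58 and 7.36 in KO 1w, and 4.52 and 4.64 in KO 3w. Slc25a17 was at 17.0 and 15.4, 15.2 and 15.1, 14.4 and 15.5, and 10.5 and 9.80 CPM in the same order. KO 3w was the lowest group for both, below all 6 other libraries. The differences from control 3w were -0.73 ± 0.12 (adjusted p = 2.3e-07) and -0.58 ± 0.08 (adjusted p = 2.5e-08). Slc25a29, a carrier of basic amino acids, had the largest called fall at 3w on the log2 scale, from 6.80 and 5.90 CPM in control to 3.07 and 2.93 in KO (-1.09 ± 0.15), and was at 0.29 to 0.74 CPM at 1w. The other carriers lower at 3w were Slc25a34 (-0.45), Slc25a36 (-0.43), the glycine carrier Slc25a38 (-0.32), Slc25a13, Slc25a16, the pyrimidine nucleotide carrier Slc25a33 (-0.27), the coenzyme A carrier Slc25a42 (-0.23), Slc25a46 and Slc25a5 (-0.10). The call of Slc25a5 was lost without control 3w replicate 1 (adjusted p = 0.12) and without KO 3w replicate 1 (adjusted p = 0.16), and that of Slc25a38 in DESeq2's Wald test (adjusted p = 0.057).

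Slc25a23 led the carriers of at least 5 CPM that were higher in KO 3w. It read 19.5 and 21.2 CPM in control 1w, 22.7 and 21.8 in control 3w, 25.1 and 25.3 in KO 1w, and 39.8 and 39.4 in KO 3w. KO exceeded control at each age without overlap, by 0.30 ± 0.06 at 1w and 0.83 ± 0.06 at 3w (adjusted p = 2.2e-19). Slc25a35, a member whose substrate is not named here, rose from 4.82 and 5.19 CPM in control 3w to 9.82 and 10.3 in KO 3w (1.02 ± 0.11), and 31.3% of its exon bases overlap another gene, so its counts are uncertain where strand was not used. Slc25a45 was at 0.93 and 0.95 CPM in control 3w and 1.77 and 1.92 in KO 3w (0.97 ± 0.23), and Slc25a30, an uncoupling-protein-like carrier, at 3.34 and 2.76 against 5.54 and 6.38 CPM (0.95 ± 0.14). Slc25a44, the carrier of branched-chain amino acids, was at 19.1 and 18.8 CPM in control 3w and 23.6 and 22.8 in KO 3w (0.29 ± 0.07). Of these 5, all had KO 3w above control 3w without overlap.

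The other 5 higher at 3w rested on single libraries. Slc25a24 (0.63) had an adjusted p of 0.25 without control 3w replicate 1, and Slc25a10 is given above. Slc25a1, the citrate carrier (0.61), had 0.13 without control 3w replicate 2 and 0.077 without KO 3w replicate 1. Slc25a39, a glutathione carrier (0.16), had 0.19 and 0.068 without the same libraries. Slc25a32, the carrier of folate and FAD (0.20), lost the call without any of 6 libraries, with adjusted p between 0.055 and 0.39, and with a block for injection day (0.059).

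Between the KO effects at 1w and at 3w, which share no library, 6 carriers were higher at both ages (Slc25a10, Slc25a23, Slc25a24, Slc25a30, Slc25a35 and Slc25a45) and 8 lower at both (Slc25a3, Slc25a4, Slc25a12, Slc25a13, Slc25a16, Slc25a20, Slc25a36 and Slc25a46). At 3w alone 4 were called higher and 11 lower, at 1w alone 1 higher and 3 lower, and 8 were called at neither age. No carrier, 0 of 41, was called in opposite directions. These joint counts were made for the carriers only, so whether they differ from those of all genes was not tested.

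**Figure D2:**
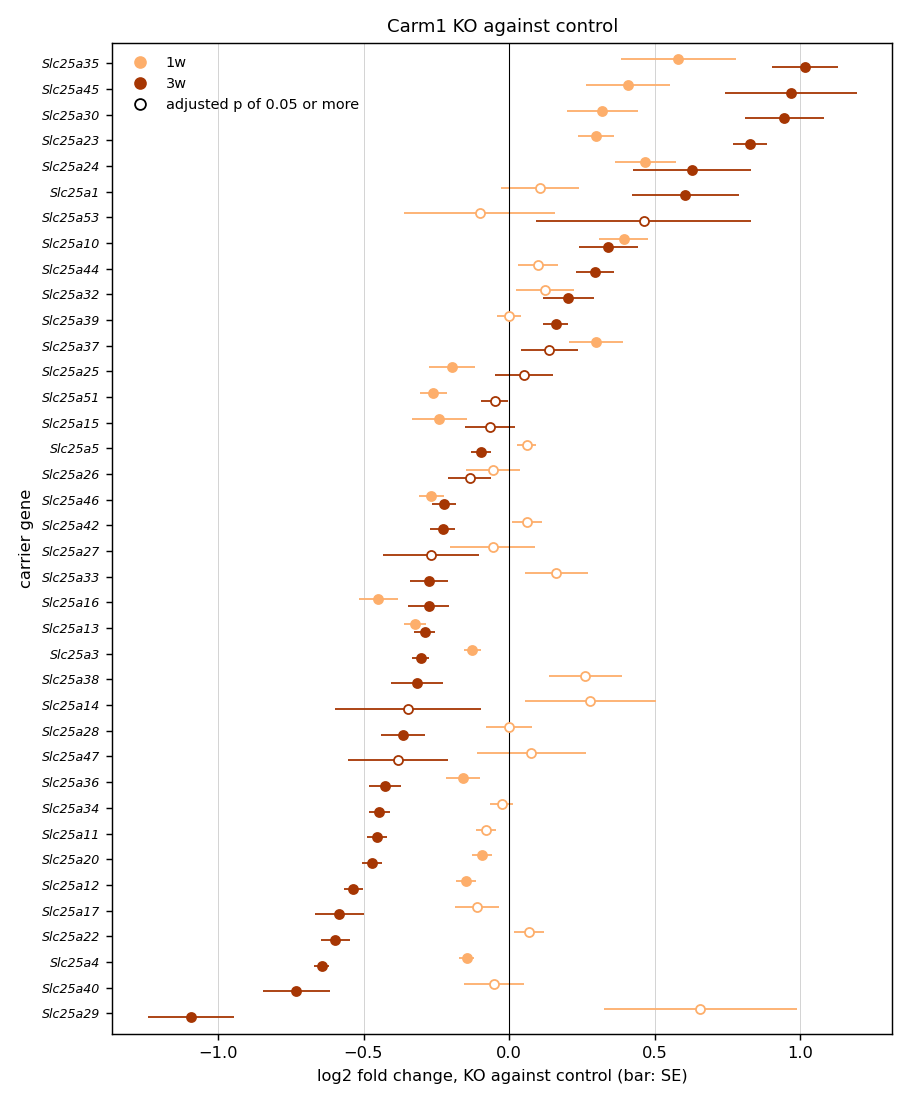
Log2 change of KO against control at 1w and at 3w for 38 carriers with a mean of at least 0.5 CPM, with bars for the SE, filled points for an adjusted p under 0.05 and open points otherwise. At 3w Slc25a4 lies at -0.64 and Slc25a23 at 0.83, while the 1w values of both lie closer to 0.

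The difference between the KO effects was tested itself, as the KO effect at 3w less that at 1w. It was negative for 17 carriers and positive for 4, and 20 did not pass the test, with a median of -0.16 against -0.0015 over all genes. Among all genes 17.9% were called negative and 17.6% positive, so the share of carriers called negative was above the background. The difference was -0.67 ± 0.07 for Slc25a22, -0.50 ± 0.04 for Slc25a4 (adjusted p = 9.3e-17), -0.39 ± 0.05 for Slc25a12, -0.38 ± 0.05 for Slc25a20, -0.37 ± 0.05 for Slc25a11 and -0.18 ± 0.04 for Slc25a3. It was 0.53 ± 0.08 for Slc25a23. For Slc25a13 and Slc25a46, which were lower in KO at both ages, it was 0.03 ± 0.05 (adjusted p = 0.67) and 0.05 ± 0.06 (adjusted p = 0.60).

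Over both ages in the additive fit, which is balanced over the Y-linked split, 7 carriers were higher in KO and 10 lower, and 24 did not pass the test, with a median of -0.09 against 0.011 over all genes. Among all genes 16.3% were higher and 14.5% lower. The 10 that fell were Slc25a4 (-0.39 ± 0.09, adjusted p = 0.013), Slc25a16 (-0.36), Slc25a12 (-0.34), Slc25a17 (-0.34), Slc25a13 (-0.31 ± 0.04, adjusted p = 0.00048), Slc25a36 (-0.30), Slc25a20 (-0.28), Slc25a11 (-0.27), Slc25a46 (-0.25) and Slc25a3 (-0.22). The 7 that rose were Slc25a35 (0.85), Slc25a45 (0.63), Slc25a30 (0.63), Slc25a23 (0.57 ± 0.10, adjusted p = 0.0032), Slc25a24 (0.52), Slc25a10 (0.38) and Slc25a44 (0.20). Slc25a22, with -0.26 ± 0.12, did not pass here (adjusted p = 0.14). Control and KO libraries with the same number and age share a labelled injection day, and with a block for that day 4 carriers stayed lower and 5 higher. Slc25a4 (adjusted p = 0.065), Slc25a3 (0.063), Slc25a12 (0.052), Slc25a20 (0.076), Slc25a11 (0.089), Slc25a17 (0.090), Slc25a30 (0.058) and Slc25a44 (0.096) lost their calls with it. The call of Slc25a4 was also lost with no filter on low counts (adjusted p = 0.067). Slc25a44 lost its call without 5 of the 8 libraries (adjusted p between 0.051 and 0.12), Slc25a17 without any 1 of the 3w libraries (0.056 to 0.064) and Slc25a11 without either KO 3w library (0.061 and 0.064). The mean of the KO effects at both ages in the fit of 4 groups called 11 carriers higher and 17 lower.

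Between 1w and 3w, 22 of the 41 carriers rose in control and 9 fell, and 10 did not pass the test. In KO 22 rose and 12 fell, and 7 did not pass. The medians were 0.44 in control and 0.29 in KO, against -0.025 and -0.020 over all genes. Among all genes 34.9% rose and 36% fell in control, and 33.2% rose and 34.6% fell in KO, so the share of carriers that rose was above the background in each. Over both treatments in the additive fit 22 rose and 8 fell, with a median of 0.31 against -0.026, where 32.3% and 34.3% of all genes did so.

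The 4 largest called rises with age were those of Slc25a29, Slc25a33, Slc25a34 and Slc25a35, in control and in KO alike. Slc25a33 measured 5.79 and 5.93 CPM in control 1w, 30.1 and 30.5 in control 3w, 7.21 and 5.85 in KO 1w, and 25.9 and 24.2 in KO 3w. Both 3w groups lay above both 1w groups, by 2.37 ± 0.09 in control and 1.93 ± 0.08 in KO, and 14.9% of its exon bases overlap another gene. Slc25a34 went from 68.0 and 72.5 CPM to 283.8 and 271.0 in control (1.98 ± 0.04) and from 70.6 and 67.7 to 208.6 and 199.0 in KO (1.56 ± 0.04). Slc25a29 rose by 3.83 ± 0.22 in control and by 2.08 ± 0.22 in KO from under 1 CPM at 1w, and Slc25a35 by 1.93 ± 0.17 and 2.36 ± 0.13. The rise of Slc25a4 was 1.15 ± 0.03 in control and 0.65 ± 0.03 in KO, that of Slc25a11 1.05 ± 0.03 and 0.68 ± 0.03, and that of Slc25a12 0.97 ± 0.03 and 0.58 ± 0.03. Slc25a13 rose alike on this scale, by 0.92 ± 0.04 and 0.95 ± 0.04, and Slc25a26, the S-adenosylmethionine carrier, by 1.16 ± 0.08 and 1.08 ± 0.08.

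Carriers that fell with age were mostly of low abundance. Slc25a24 dropped from 7.05 and 6.59 CPM to 1.14 and 1.59 in control (-2.35 ± 0.15) and from 9.71 and 9.03 to 2.05 and 2.06 in KO (-2.19 ± 0.13). Slc25a45 fell by 1.83 in control and 1.27 in KO, Slc25a1 by 1.26 and 0.76, Slc25a25 by 0.98 and 0.73, and Slc25a10 by 0.67 and 0.73. Slc25a5 was the abundant carrier that fell: 252.4 and 253.7 CPM in control 1w, 234.0 and 222.9 in control 3w, 267.1 and 260.4 in KO 1w, and 209.3 and 218.2 in KO 3w. The 3w libraries were below the 1w libraries in each treatment, by -0.15 ± 0.03 and -0.30 ± 0.03. Slc25a5 and Slc25a14 are X-linked, as are Slc25a43 and Slc25a53.

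The age changes in control and in KO share no library. In both, 19 carriers rose and 7 fell (Slc25a1, Slc25a5, Slc25a10, Slc25a24, Slc25a25, Slc25a45 and Slc25a53). Slc25a16 and Slc25a30 were called lower with age in control only, and Slc25a14, Slc25a17, Slc25a27, Slc25a31 and Slc25a40 in KO only. Among those called lower in 1 treatment, Slc25a17, Slc25a30 and Slc25a40 passed the test of the difference and the others did not. Slc25a22, Slc25a28 and Slc25a47 were called higher with age in control only, and Slc25a23, Slc25a39 and Slc25a51 in KO only. Of these, Slc25a22, Slc25a28, Slc25a23, Slc25a39 and Slc25a51 also passed the test of the difference between the treatments, and Slc25a47 did not (-0.46, adjusted p = 0.16). Slc25a28 lost that call without KO 3w replicate 1 (adjusted p = 0.11), Slc25a51 without control 1w replicate 1 (0.068) and without KO 1w replicate 2 (0.075), and Slc25a39 without 6 of the 8 libraries (0.069 to 0.33). None, 0 of 41, was called in opposite directions. Joint counts over all genes were not made here either, so no background stands beside these.

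**Figure D3:**
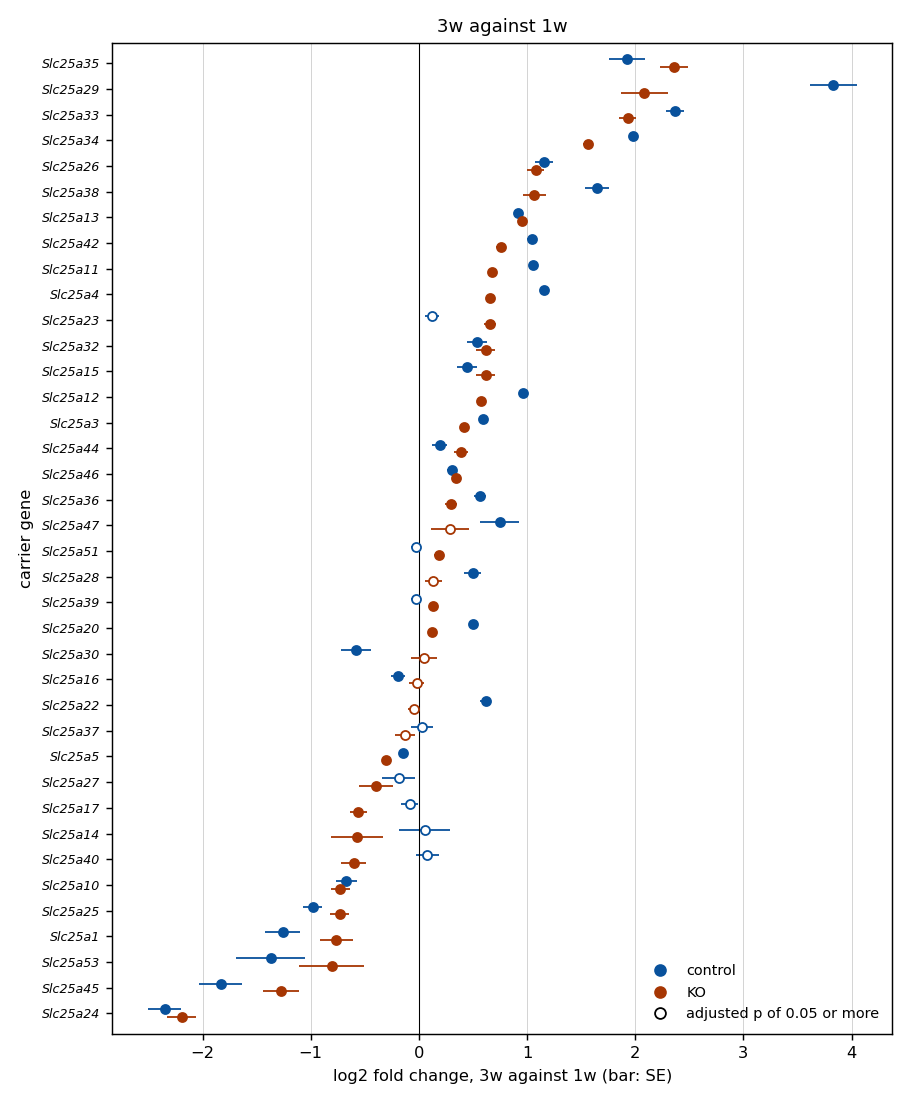
Log2 change from 1w to 3w in control and in KO for 38 carriers with a mean of at least 0.5 CPM, with bars for the SE, filled points for an adjusted p under 0.05 and open points otherwise. Slc25a4 lies at 1.15 in control and 0.65 in KO, Slc25a22 at 0.62 and -0.05, and Slc25a13 at 0.92 and 0.95.

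By role the groups hold few members, and their counts stand beside 24.8% of all genes lower and 24.4% higher in KO at 3w. The aspartate and glutamate carriers had 3 of 4 members lower in KO at 3w (Slc25a12, Slc25a13 and Slc25a22, not Slc25a18), and the adenine nucleotide carriers 2 of 3 (Slc25a4 and Slc25a5). Both tested pyrimidine nucleotide carriers (2 of 2) were lower. Of 7 tested cofactor carriers 3 were lower at 3w (Slc25a16, Slc25a17 and Slc25a42) and 1 was higher (Slc25a32), with Slc25a26 at -0.14 (adjusted p = 0.12). Of 4 tested phosphate and ATP-Mg/phosphate carriers 2 were higher (Slc25a23 and Slc25a24), 1 was lower (Slc25a3) and Slc25a25 was at 0.05. Of 3 tested di- and tricarboxylate carriers Slc25a1 and Slc25a10 were higher and Slc25a11 lower. Of 3 uncoupling-protein-like carriers, 1, Slc25a30, was higher, and Slc25a27 was at -0.27 (adjusted p = 0.18) and Slc25a14 at -0.35 (adjusted p = 0.26). Of 4 tested carriers of acylcarnitine, choline and basic amino acids 2 were lower and 1 higher. The 5 tested carriers of other amino acids and glutathione had 2 lower and 2 higher. Of 2 iron carriers 1 was lower, and of 4 tested carriers without an assigned role 2 were lower and 1 higher.

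Closely related carriers did not keep a fixed ratio. The level of Slc25a4 per kb of principal transcript was 7.30 and 7.72 times that of Slc25a5 in control 1w, 17.7 and 19.4 times in control 3w, 6.49 and 6.54 times in KO 1w, and 13.0 and 12.3 times in KO 3w. The 4 groups did not overlap, and KO was the lower at each age. Slc25a23 stood to Slc25a24 as 2.83 and 3.29 in control 1w, 20.3 and 14.0 in control 3w, 2.64 and 2.85 in KO 1w, and 19.9 and 19.6 in KO 3w, so that KO and control overlapped at each age and the ages did not. Slc25a33 stood to Slc25a36 as 0.56 and 0.61 in control 1w and 0.79 and 0.67 in KO 1w. At 3w this ratio was 2.05 and 2.06 in control and 2.43 and 2.15 in KO, which put KO above control at each age. Per kb of merged exons its log2 was 0.05 and 0.16 in control 1w and 0.54 and 0.30 in KO 1w. Slc25a33 thus lay below Slc25a36 at 1w by the principal transcript length only.

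The aspartate-glutamate carriers Slc25a12 and Slc25a13 were near parity, with a log2 ratio of Slc25a12 to Slc25a13 of -0.04 and -0.05 in control 1w and 0.04 and -0.03 in control 3w. The ratio was 0.12 and 0.14 in KO 1w and -0.24 and -0.24 in KO 3w, above the control at 1w and below it at 3w. Mitoferrin 2, Slc25a28, was 4.23 and 3.95 times Slc25a37 in control 1w, 5.43 and 5.89 times in control 3w, 3.04 and 3.64 times in KO 1w, and 3.50 and 4.47 times in KO 3w. KO lay below control at each age in this ratio.

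**Figure D4:**
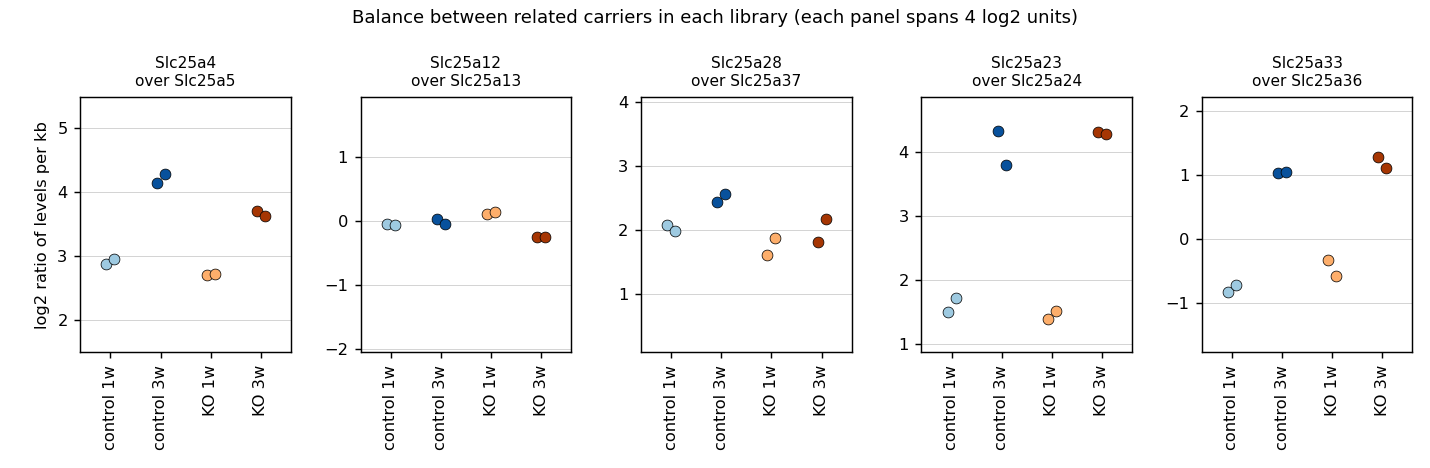
Log2 ratio of levels per kb of principal transcript within 5 pairs of related carriers, 1 point for each of the 8 libraries, with every panel spanning 4 log2 units. Slc25a4 over Slc25a5 separates all 4 groups, from 2.70 and 2.71 in KO 1w to 4.14 and 4.28 in control 3w, whereas Slc25a23 over Slc25a24 separates the ages and not the treatments.

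Other genes of mitochondrial transport were counted as a list of 36, of which 33 were tested and Ucp1, Timm10b and Abcb10 were below the filter. The list includes the 5 SLC25 family proteins under other symbols, Ucp1, Ucp2, Ucp3, Mtch1 and Mtch2. At 1w 9 of the 33 were higher and 10 lower in KO, beside 23% and 20% of all genes. At 3w 5 were higher and 19 lower, with a median of -0.24, beside 24.4% and 24.8% of all genes. The test of the difference between these KO effects was negative for 17 and positive for 3, beside 17.9% and 17.6%. With age 20 of the 33 rose and 7 fell in control, beside 34.9% and 36%. In KO 13 rose and 8 fell, beside 33.2% and 34.6%, the rises near that share.

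The 3 channels of the outer membrane and both subunits of the pyruvate carrier were lower in KO 3w. Vdac1, the main outer membrane channel, was at 805.4 and 845.2 CPM in control 3w and 663.2 and 670.7 in KO 3w (-0.31), and Mpc2, a subunit of the pyruvate carrier, at 158.5 and 151.8 against 116.4 and 112.1 CPM (-0.44). Vdac2 (-0.14), Vdac3 (-0.35) and Mpc1 (-0.20) were called in the same direction. Ucp3, an uncoupling protein of muscle, was at 66.9 and 68.3 CPM in control 1w, 112.8 and 121.7 in control 3w, 52.1 and 54.2 in KO 1w, and 51.1 and 48.7 in KO 3w. It was lower in KO by -0.35 at 1w and -1.23 at 3w, while the more widely expressed Ucp2 was higher by 0.40 and 0.43. Of the 9 tested genes for import of carriers into the inner membrane 4 were lower and 1 higher in KO 3w, with Timm29 at -0.34 and Timm9 at 0.31. The same list had 4 lower and 1 higher at 1w. In the list of calcium uptake and exchange 1 of 8 was lower and 4 were higher at 1w (median 0.23), and 5 were lower and 1 higher at 3w (median -0.24), with Mcu, the uniporter, at -0.38 and the sodium-calcium exchanger Slc8b1 at 0.70 at 3w. Over all genes 24.8% were lower and 24.4% higher at 3w.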

How the data were processed

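The deposited data were 1 table of gene counts with 54752 Ensembl IDs and 8 libraries of isolated mouse cardiomyocytes, made with the SMART and Nextera XT kits per the labels' protocols. The authors used HISAT2 on mm10, featureCounts for the counts, FastQC and MultiQC for quality, and DESeq2, per the submitters' processing notes. For these tools the version, the strand setting and the gene annotation were not given in the sources used here. The counts were used as deposited. GENCODE M21 named 54723 of the IDs and gave the exon and principal transcript lengths.

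Genes were kept by edgeR's filterByExpr (minimum count 10, minimum total 15), which left 14665, and scaled by TMM (factors 0.759 to 1.23). The factors were 1.14 and 1.15 in control 1w, 0.782 and 0.759 in control 3w, 1.23 in both KO 1w libraries, and 0.917 and 0.916 in KO 3w. The test was the robust quasi-likelihood F-test of edgeR in a fit of 4 groups (4 residual degrees of freedom, common coefficient of variation 3.03%). Effects over both ages or both treatments came from an additive fit of age and KO (5 residual degrees of freedom). Benjamini-Hochberg adjustment ran over all genes of a comparison, calls were made at an adjusted p under 0.05, and the SE was derived from the F statistic. Library totals between 20818285 and 53671626 counts set the precision. The code was tested on simulated counts. Versions were 4.0.16 for edgeR, 1.42.0 for DESeq2, 3.58.1 for limma and 4.3.3 for R.

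Carriers are named by rule: the 10 with the highest level per kb, per comparison the 8 called members that rose most and the 8 that fell most among those with a mean of at least 5 CPM, both genes of 5 related pairs, and those below the filter. Of the related transport lists up to 3 called genes each are named. Further called carriers were named after their values were seen, to account for every count. The members, the lists and the rule were chosen with earlier results of these data known. The alternatives were DESeq2's size factors and Wald test, no filter, no mitochondrially encoded genes, each library left out, a block for replicate number or injection day, and the mean of contrasts. A mean of at least 5 CPM as a limit and the principal transcript length were added after seeing the data. Protein sequences were not used here. The values of 1 tested carrier are not reported here, although it is part of the counts.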

Additional observations from a re-analysis of the deposited data

Results flagged for a closer look

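The KO effect differed between 3w and 1w for 21 carriers by the test of the difference itself in edgeR, with 17 below 0 and 4 above. Values are the log2 KO effect at 3w less that at 1w. This contrast cannot be told apart from the Y-linked split of the libraries, and no explanation was tested.

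Among the carriers of adenine nucleotides, phosphate and acylcarnitine the differences were -0.50 for Slc25a4, -0.16 for Slc25a5, -0.18 for Slc25a3 and -0.38 for Slc25a20. Among those of oxoglutarate-malate, aspartate and glutamate they were -0.37 for Slc25a11, -0.39 for Slc25a12 and -0.67 for Slc25a22. Slc25a29 had the largest size, -1.75, from under 1 CPM at 1w. Slc25a4 rose less with age in KO than in control, and Slc25a22 and Slc25a20 in KO 3w were close to their 1w level in TMM-scaled CPM. The call of Slc25a5 was lost without control 3w replicate 1 (adjusted p = 0.056), KO 1w replicate 1 (0.060) or KO 3w replicate 1 (0.11).

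Among the carriers of cofactors, nucleotides, glycine, glutathione and iron they were -0.68 for Slc25a40, -0.58 for Slc25a38, -0.47 for Slc25a17, -0.44 for Slc25a33, -0.36 for Slc25a28, -0.29 for Slc25a42 and -0.27 for Slc25a36, and Slc25a34 had -0.42. The call of Slc25a33 was lost without KO 1w replicate 1 (adjusted p = 0.16), that of Slc25a36 without KO 3w replicate 1 (0.053) and that of Slc25a28 without KO 3w replicate 1 (0.11).

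The 4 carriers above 0 were Slc25a30 (0.63), Slc25a23 (0.53), Slc25a51 (0.21) and Slc25a39 (0.16). Slc25a30 lost the call without KO 3w replicate 2 (adjusted p = 0.050), and the libraries on which Slc25a51 and Slc25a39 rest are given in the report.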

How the results depend on the processing

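With 2 libraries a group, small effects rest on single libraries. Of 287 carrier effects 180 were called, and none was reversed under any alternative run. DESeq2's Wald test called 3 carriers higher and 7 lower at 1w, and 1 with a positive difference between the KO effects. With no filter on low counts 7 were lower at 1w. Of carriers with a mean of at least 5 CPM, a limit added after seeing the data, 3 were higher in KO at 1w, 5 at 3w and 3 over both ages, and 4 fell with age in control, 5 in KO and 4 over both treatments. The mean of contrasts called 11 higher and 17 lower in KO over both ages.

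Same-numbered libraries did not deviate together (correlations of -0.0222 to 0.00825 over 6 pairs of groups), although control and KO libraries of the same age and number share a labelled injection day. The replicate block called 7 higher and 11 lower at 1w and 10 and 19 at 3w, and 6 and 10 over both ages, with 2 calls lost among carriers of at least 5 CPM, Slc25a32 at 3w (adjusted p = 0.058) and Slc25a44 over both ages (0.051). A replicate block by injection day left 5 higher and 4 lower over both ages, and the calls it changed are given in the report.

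Leaving out each library gave 4 to 7 higher and 7 to 12 lower at 1w, and 6 to 10 and 18 to 20 at 3w. It gave 6 to 7 higher and 8 to 12 lower over both ages, and 2 to 6 positive and 13 to 19 negative differences between the KO effects. With age, 21 to 23 rose and 8 to 9 fell in control, 21 to 23 and 8 to 12 in KO, and 22 to 23 and 7 to 9 over both. The lowest counts of higher calls came without KO 1w replicate 1 at 1w (4) and without control 3w replicate 2 or KO 3w replicate 1 at 3w (6). The lowest count of lower calls at 1w (7) came without KO 1w replicate 2.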
